A study of Mus musculus with 44 samples.

Results

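RING1B peaks of middle width that lie outside H3K27me3 were described in mouse haematopoietic progenitor cells. They are the peaks of the authors' RING1B list that are wider than 2000 bp, at most 5000 bp wide, and share no base with any listed H3K27me3 region. The peaks were thus chosen by 2 measured values, RING1B peak width and overlap with H3K27me3. This choice took 886 of the 24987 RING1B peaks, called off-H3K27me3 peaks here. The 2352 RING1B peaks of the same width that do share a base with H3K27me3 are the nearest like set and are called on-H3K27me3 peaks.

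RING1B is the catalytic ubiquitin ligase subunit of Polycomb repressive complex 1, which places a single ubiquitin on histone H2A. H3K27me3, trimethylation of lysine 27 of histone H3, is written by Polycomb repressive complex 2 and marks its target chromatin. PCGF1 is a RING finger protein that pairs with RING1B in a variant form of Polycomb repressive complex 1, which also holds KDM2B and BCOR and is known to be brought to unmethylated CpG islands through the DNA-binding domain of KDM2B. Variant complexes can thus bind without H3K27me3, whereas canonical complexes read the mark through their CBX subunits.

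The study mapped chromatin proteins and marks by immunoprecipitation and sequencing in 44 libraries of 23 groups. The lists used here stand for 6 libraries of IdHP cells, cultured progenitors of bone marrow origin and strain B6CBAF1/J, at passages 15 to 18, grown on TSt4 stroma with IL7, SCF and Flt3 ligand. RING1B (2 libraries) and H3K27me3 (2 libraries) came from Pcgf1 fl/fl cells, and PCGF1 was mapped with an antibody to FLAG (2 libraries) in Pcgf1 -/- cells given FLAG-PCGF1. PCGF1 positions are therefore those of a tagged protein put back into deleted cells, and they are set beside RING1B positions from another genotype. The labelled cell type could not be checked against markers, because the lists hold no expression values.

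Each list stands for its 2 libraries together, so no value here has a replicate error, and read depth is unknown. Intervals after shares are exact 95% binomial (Clopper-Pearson) intervals; they cover counting error only, and neighbouring peaks are not independent. No test was run between sets of peaks, since peaks are not replicates of a condition. The RING1B width and the H3K27me3 list chose the peaks, so RING1B values and distances to H3K27me3 are description; PCGF1 took no part in the choice. Positions are in build mm9.

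The off-H3K27me3 peaks were mostly near the lower width limit and of moderate strength. Their width had a median of 2596 bp (interquartile range 2233 to 3188), against 3014 bp (2442 to 3852) for on-H3K27me3 peaks. Their fold enrichment, the authors' ratio of RING1B signal over background for each peak, ran from 2.82 to 18.3 with a median of 3.53 (3.29 to 4.02), against a median of 3.40 (3.22 to 3.72) on H3K27me3 and 3.22 over all RING1B peaks. Their median -log10 q, the authors' significance of the peak, was 3.10, against 2.73 on H3K27me3. A -log10 q of at least 5 was reached by 191 of the 886 (21.6%, 18.9 to 24.4), by 250 of the 2352 on H3K27me3 (10.6%, 9.41 to 11.9) and by 9.96% of all RING1B peaks. Across the 886 peaks width and fold were hardly related (Spearman rho 0.12, Pearson r 0.05), while across the on-H3K27me3 peaks rho was 0.31 and r was 0.27; within each set all points come from 1 list and share its depth.

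**Figure D1:**
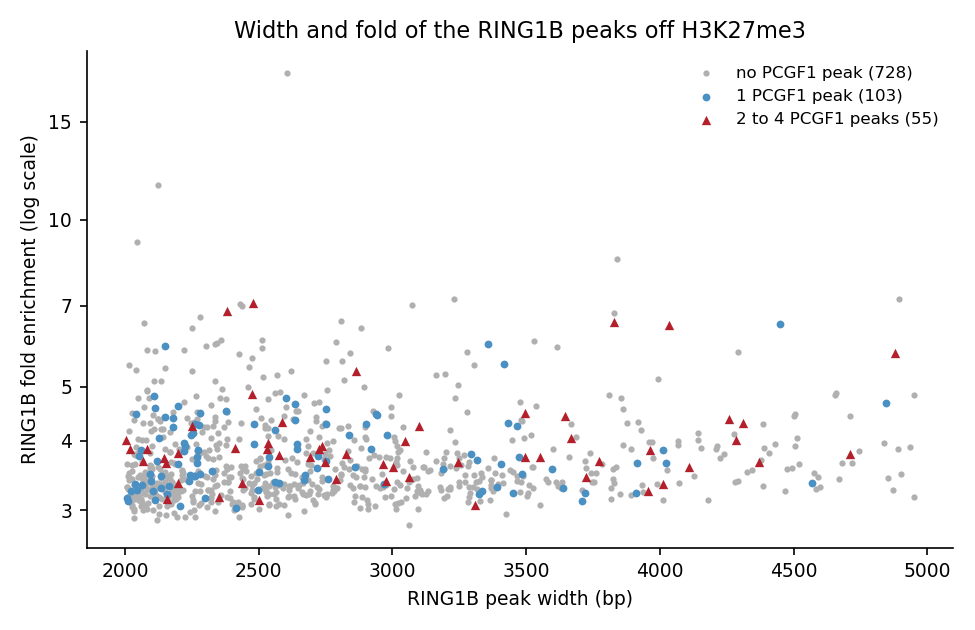
Each point is 1 of the 886 RING1B peaks off H3K27me3, with its width in bp on the x axis and its fold enrichment on a log y axis. Grey points hold no PCGF1 peak (728), blue points hold 1 (103) and red triangles hold 2 to 4 (55). Fold runs up to 18.3. Of the 10 points of highest fold 1 holds PCGF1 and of the 20 highest 5 do, beside 158 of all 886 (17.8%).

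Peaks on either side of the limits had like values. The narrowest off-H3K27me3 peaks, of 2004 bp on chromosome 6 (71442893 to 71444896) and of 2006 bp on chromosome 4 (35172549 to 35174554), had folds of 4.02 and 3.64. The widest peaks left out at that limit, of 1995 and 1999 bp, had folds of 3.19 and 3.95. At the upper limit, peaks of 4948 and 4950 bp were kept with folds of 3.17 and 4.84, and peaks of 5028 and 5052 bp were left out with folds of 3.52 and 3.89. At the H3K27me3 limit, the kept peak on chromosome 13 (19741767 to 19744510) had 0 bp between it and the next region, while an on-H3K27me3 peak on chromosome 4 (33196492 to 33198886) was left out for 6 covered bp. The next closest kept peaks had 5 and 6 bp between them and the mark.

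PCGF1 lay in 158 of the 886 off-H3K27me3 peaks (17.8%, 15.4 to 20.5), against 278 of the 2352 on-H3K27me3 peaks (11.8%, 10.5 to 13.2). The same share was 5.85% of all RING1B peaks and 13.5% of all RING1B peaks of this width. Within H3K27me3-free RING1B peaks the share was 2.22% (1.94 to 2.52) up to 1000 bp wide, 8.97% (7.90 to 10.1) from 1000 to 2000 bp, and 10.5% (5.56 to 17.7) in the 114 peaks above 5000 bp. Inside the 2 to 5 kb window width made little difference off H3K27me3: 17.6% of peaks up to 2500 bp, 17.7% up to 3000 bp, 17.5% up to 4000 bp and 20.6% up to 5000 bp held PCGF1. On H3K27me3 the same 4 classes gave 9.86%, 9.36%, 13.2% and 15.1%. Weighted by the widths of the off-H3K27me3 peaks, the difference was 6.94 percentage points, against 6.01 without weighting.

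The PCGF1 share depended on where a peak stood relative to H3K27me3, and it was lowest at the border. Of the off-H3K27me3 peaks 5000 to 10000 bp from the nearest region, 38 of 142 held PCGF1 (26.8%, 19.7 to 34.8). The share was 20.8% (15.1 to 27.5) at 2000 to 5000 bp, 14.3% (8.55 to 21.9) at 1000 to 2000 bp, 10.9% (5.56 to 18.7) at 500 to 1000 bp, and 7 of 110 (6.36%, 2.60 to 12.7) within 500 bp. Between 10000 and 20000 bp it was 23.0% (16.0 to 31.4) and beyond 20000 bp 17.3% (10.7 to 25.7), so the farthest peaks were not the ones with most PCGF1.

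The on-H3K27me3 peaks carried the low share across the border. Peaks covered up to 25% by H3K27me3 held PCGF1 in 7.75% (4.80 to 11.7), those covered 25 to 50% in 7.40% (4.93 to 10.6) and those covered 50 to 75% in 7.41% (4.80 to 10.8). Those covered 75 to under 100% held it in 12.5% (8.26 to 17.9). The 1205 peaks wholly covered held it in 15.1% (13.1 to 17.3), an interval that overlaps that of the off-H3K27me3 peaks. The difference of 6.01 points thus came to 2.73 points against wholly covered peaks. That comparison left border peaks out of the on-H3K27me3 set only. Off-H3K27me3 peaks beyond 2000 bp from H3K27me3 held PCGF1 in 22.1% (18.7 to 25.8), an interval apart from that of wholly covered peaks. Both comparisons were chosen after seeing the data, and neither was matched for RING1B neighbours, which are described below.

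**Figure D2:**
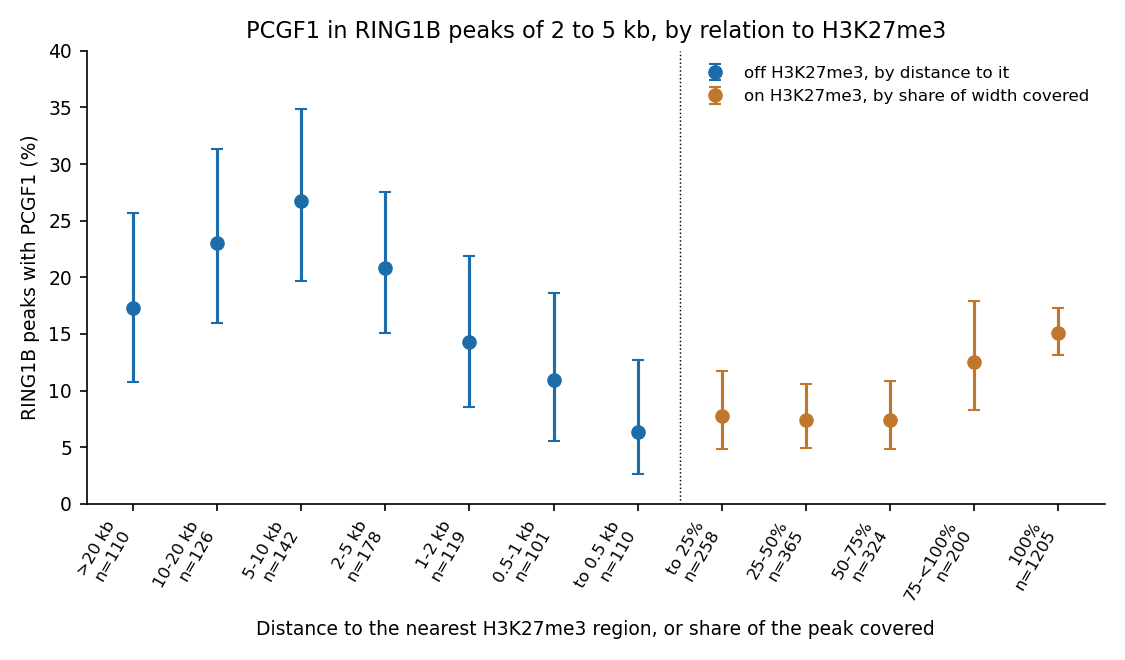
Share of RING1B peaks of 2 to 5 kb that hold a PCGF1 peak (y axis, %), by distance to the nearest H3K27me3 region for peaks off it (blue) and by the share of the peak covered for peaks on it (orange); bars are exact 95% binomial intervals and n is the number of peaks. The share is 26.8% at 5 to 10 kb, 6.36% within 0.5 kb and 15.1% in wholly covered peaks.

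RING1B fold moved along with this distance. The median fold was 3.36 within 500 bp of H3K27me3 and 3.84 beyond 20000 bp, and fold and distance had a Spearman rho of 0.20 (Pearson r 0.20, n = 886). The PCGF1 share near H3K27me3 was the lower one at both levels of fold. Among peaks at or below the median fold, 12 of 198 within 2000 bp of H3K27me3 held PCGF1 (6.06%, 3.17 to 10.3), against 41 of 245 farther away (16.7%, 12.3 to 22). Among peaks above it the shares were 17.4% (11.4 to 25) and 26.4% (21.6 to 31.6), with intervals that overlap. Among the narrower H3K27me3-free RING1B peaks of 1000 to 2000 bp, the shares within and beyond 2000 bp were 8.46% (6.63 to 10.6) and 9.20% (7.90 to 10.6).

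The median distance from an off-H3K27me3 peak to the nearest H3K27me3 region was 3498 bp (interquartile range 1046 to 10931), against 5140.5 bp (1621 to 13663) over all RING1B peaks off H3K27me3; 211 peaks had a region within 1000 bp, 508 within 5000 bp and 865 within 50000 bp. The gap between the flanking H3K27me3 regions had a median of 28905 bp, of which the RING1B peak filled a median of 9.47%. In 26 peaks H3K27me3 came within 1000 bp on both sides, so that the RING1B peak filled a median of 75.1% of a gap of 2600 to 5020 bp; 1 of these 26 held PCGF1. The nearest region had a median height, its highest signal, of 70.4, against 68.5 over all listed regions. It was 80.8 where the region lay within 2000 bp and 65.5 where it lay beyond.

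Where H3K27me3 was close, PCGF1 tended to sit on the far side of the RING1B peak. In the 35 peaks with PCGF1 and H3K27me3 within 2000 bp, 37 of 49 PCGF1 peaks had their midpoint past the middle of the RING1B peak, on the side turned away from the nearest region (75.5%, 61.1 to 86.7). With H3K27me3 within 10000 bp it was 99 of 158 (62.7%, 54.6 to 70.2). These 158 include the 49 above, so the wider count is not a separate result. PCGF1 peaks with H3K27me3 between 2000 and 10000 bp away were not counted apart. PCGF1 peaks of 1 RING1B peak are not independent, so these intervals are too narrow.

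PCGF1 shares also went with how crowded RING1B itself was. RING1B peaks were joined into chains wherever the gap between neighbours was at most 10 kb, and the 886 peaks fell into 810 chains. The smallest gap between listed RING1B peaks was 661 bp. Whether the peaks of a chain are separate sites or pieces of 1 wider domain was not tested. Of the 309 off-H3K27me3 peaks alone in their chain, 95 held PCGF1 (30.7%, 25.6 to 36.2). The share was 49 of 338 (14.5%, 10.9 to 18.7) in chains of 2 to 4 RING1B peaks, 13 of 153 (8.50%, 4.60 to 14.1) in chains of 5 to 9, and 1 of 86 (1.16%, 0.0294 to 6.31) in chains of 10 or more. On-H3K27me3 peaks had shares of 28.4% (24.5 to 32.5), 11.9% (9.86 to 14.3), 2.49% (1.37 to 4.14) and 3.28% (1.76 to 5.55) in the same 4 classes. Among lone peaks the difference between the 2 sets was thus 2.34 points and their intervals overlap. Among peaks with RING1B neighbours it was 3.74 points. The intervals are apart in chains of 5 to 9 and overlap in chains of 2 to 4. In chains of 10 or more they overlap, and the on-H3K27me3 share was the higher one. The chains were examined after the first results were seen.

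**Figure D3:**
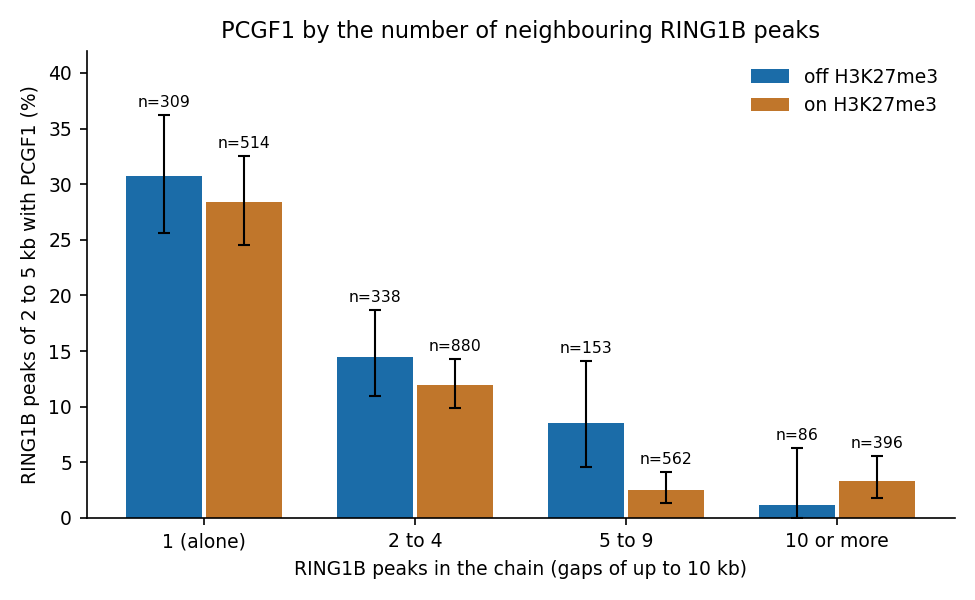
Share of RING1B peaks of 2 to 5 kb that hold PCGF1 (y axis, %), by the number of RING1B peaks in the chain (x axis; neighbours joined across gaps of up to 10 kb), off H3K27me3 (blue) and on it (orange); bars start at 0, error bars are exact 95% binomial intervals and n is the number of peaks. Lone peaks hold PCGF1 in 30.7% and 28.4%, and peaks in chains of 10 or more in 1.16% and 3.28%.

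Within each class of crowding the order by distance to H3K27me3 was the same, though the intervals overlap. Lone off-H3K27me3 peaks held PCGF1 in 20.7% (12.7 to 30.7) within 2000 bp of H3K27me3 and in 34.7% (28.4 to 41.3) beyond it. Peaks with RING1B neighbours in their chain held it in 7.00% (4.13 to 11) and 13.8% (10.3 to 17.9). Lone on-H3K27me3 peaks wholly covered by H3K27me3 held PCGF1 in 32.6% (27.2 to 38.4). That interval overlaps those of lone off-H3K27me3 peaks both within and beyond 2000 bp. The order by crowding was the same at both levels of fold, with intervals that do not overlap: at or below the median fold, 23.0% (16.2 to 31.0) of lone peaks and 7.14% (4.53 to 10.6) of the others held PCGF1, and above it 36.8% (29.6 to 44.4) and 15.2% (11.2 to 20.1). Off-H3K27me3 peaks had another RING1B peak within 10 kb in 577 of 886 cases (65.1%, 61.9 to 68.3), against 63.2% of all RING1B peaks and 78.1% (76.4 to 79.8) of on-H3K27me3 peaks. Their nearest RING1B neighbour lay on H3K27me3 in 281 cases (31.7%, 28.7 to 34.9), against 47.3% of all RING1B peaks. It did so in 71.9% (70.1 to 73.7) of on-H3K27me3 peaks. Over H3K27me3-free RING1B peaks of all widths, which include the 886, both shares were lower than in the 886. There 51.0% (50.2 to 51.9) had a RING1B peak within 10 kb, and 26.5% (25.7 to 27.2) had their nearest neighbour on H3K27me3.

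PCGF1 peaks in the off-H3K27me3 set were short, and some RING1B peaks held several. The 158 RING1B peaks held 236 PCGF1 peaks, 9.19% of the PCGF1 list: 103 held 1, 35 held 2, 17 held 3 and 3 held 4. Those with 2 or more were 34.8% (27.4 to 42.8) of the 158, against 25.2% (20.2 to 30.7) of the 278 on H3K27me3 and 23.1% of all RING1B peaks with PCGF1. The PCGF1 peaks had a median width of 222.5 bp (116.5 to 452) and a median fold of 4.79 (4.61 to 4.99), against 395 bp (166 to 890) and 4.92 (4.67 to 5.18) in on-H3K27me3 peaks. Over the whole PCGF1 list the medians were 224 bp and 4.79. Together they covered a median of 357.5 bp, or 13.2%, of a RING1B peak that held any, against 602.5 bp, or 17.0%, on H3K27me3. Neighbouring PCGF1 peaks of 1 RING1B peak were separated by a median of 335 bp (265.5 to 601.8), against 280.5 bp on H3K27me3. The smallest such gap off H3K27me3 was 197 bp, and whether these neighbours are separate sites was not tested. All PCGF1 peaks of the set were modest in significance: their highest -log10 q was 4.43 and the median 1.88, against 6.20 and 2.16 on H3K27me3.

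Of the 236 PCGF1 peaks, taken because they touch the RING1B peak, 221 lay wholly inside it (93.6%, 89.7 to 96.4), against 85.4% (81.4 to 88.8) of the wider PCGF1 peaks on H3K27me3; short peaks lie inside more readily, and no expected share was computed. Their midpoints fell less often at the ends: 145 had their midpoint in the middle 50% of its width (61.4%, 54.9 to 67.7), against 61.6% (56.5 to 66.6) on H3K27me3. The outer 20% of the width, 10% at each end, held 23 midpoints (9.75%, 6.28 to 14.3). Any midpoint beyond an end of the RING1B peak was counted in the 10% at that end. The median distance of a PCGF1 midpoint from the middle of the RING1B peak was 555.8 bp. Of the 728 RING1B peaks without PCGF1 inside, 3 had a PCGF1 peak within 1000 bp and 13 within 5000 bp.

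**Figure D4:**
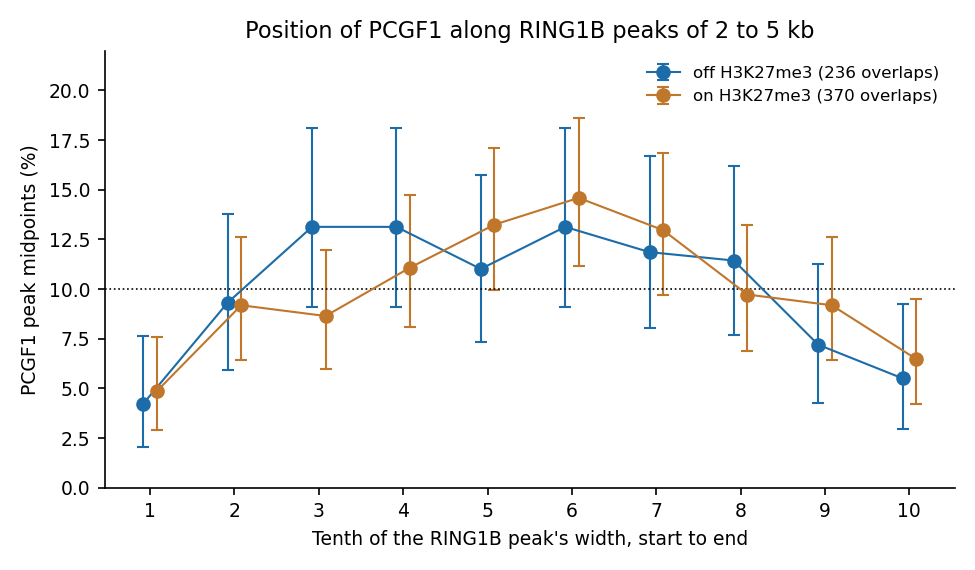
Share of PCGF1 midpoints (y axis, %) in each of 10 equal bins along the RING1B peak's width (x axis) for peaks of 2 to 5 kb off H3K27me3 (blue, 236 overlaps) and on it (orange, 370 overlaps); bars are exact 95% binomial intervals and the dotted line is an even spread of 10%. The first and last bins of the off-H3K27me3 peaks hold 4.24% and 5.51%. Any midpoint beyond an end of the RING1B peak is counted in the bin at that end.

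PCGF1 was more often present where RING1B fold was above its median. In 4 equal classes of rising fold, 9.91% (6.32 to 14.6), 14% (9.73 to 19.3), 24.9% (19.3 to 31.1) and 22.5% (17.2 to 28.6) of the off-H3K27me3 peaks held PCGF1. On-H3K27me3 peaks between the same limits had 4.79% (3.43 to 6.49), 10.7% (8.44 to 13.2), 15.2% (12.3 to 18.6) and 26.2% (21.5 to 31.3). The 2 intervals were apart in the class next to the highest and overlapped in the other 3, and in the highest class the order of the sets was the other way round. Off-H3K27me3 peaks with PCGF1 had a median fold of 3.74 and those without 3.48, with median widths of 2618 and 2595.5 bp.

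Of the 10 off-H3K27me3 peaks of highest RING1B fold, 1 held PCGF1, beside 158 of all 886 (17.8%). The first, on chromosome 10 (119714600 to 119717204, 2605 bp), had a fold of 18.3 and a -log10 q of 83.7 and lay between H3K27me3 regions 889 and 1586 bp away. The next had a fold of 11.5 and lay on chromosome 3 (51547626 to 51549749), 21345 bp from H3K27me3. A fold of 9.11 was listed on chromosome 15 (63488812 to 63490856) and one of 8.50 on chromosome 14 (54843984 to 54847824), 14961 and 13703 bp from the mark. Then came a 4894 bp peak of fold 7.21 on chromosome 5 (137166568 to 137171461) and a 3230 bp peak of fold 7.20 on chromosome 10 (40022038 to 40025267), the latter 83 bp from H3K27me3. None of these 6 held PCGF1. Over the whole set 75% of peaks had a fold below 4.02.

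The remaining 4 of the 10 followed without a break in fold. The site on chromosome 19 (5844517 to 5846993, fold 7.09) was the one with PCGF1: 2 PCGF1 peaks of folds 4.23 and 4.47, 316 and 57 bp long. It stood 38706 bp from H3K27me3 and 40858 bp from the next RING1B peak. Without PCGF1 were the sites on chromosome 11 (34442749 to 34445178), with a fold of 7.04, and chromosome 12 (12553204 to 12556276), with 7.03. The last, on chromosome 1 (136959654 to 136962092), had a fold of 6.99. It also lay without PCGF1 in a gap of H3K27me3, with regions 513 and 38 bp away. Of the 20 peaks of highest fold, 5 held PCGF1, so the count of 1 in 10 does not extend to a wider choice of strong sites.

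The 5 RING1B peaks with the strongest PCGF1 peaks had RING1B folds of 3.67 to 6.85, all above the median of 3.53. The highest PCGF1 fold, 6.31, was on chromosome 6 in a 329 bp peak (120616743 to 120617071) of a RING1B peak (120615490 to 120618242) with a fold of 4.57, just 38 bp from H3K27me3. On chromosome 14 (103380510 to 103382706, RING1B fold 4.63), a single PCGF1 peak of 1252 bp and fold 5.88 took up over 50% of the RING1B peak. Chromosome 1 (82287697 to 82290522, RING1B fold 3.78) had a PCGF1 peak of fold 5.89 and 54 bp, and chromosome 2 (174153473 to 174156717, RING1B fold 3.67) had 3, of folds 5.72, 5.09 and 5.40. The site on chromosome 8 (86520440 to 86522821) combined a RING1B fold of 6.85 with 3 PCGF1 peaks, of which the middle one, 473 bp long, had a fold of 5.74 and the outer ones 4.52 and 4.51.

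Sites with 4 PCGF1 peaks held PCGF1 peaks of ordinary fold, against the list's median of 4.79. On chromosome 13 (53074160 to 53078417, RING1B fold 4.37) the PCGF1 folds ran from 4.36 to 4.64. On chromosome 7 (37480911 to 37483498, RING1B fold 4.33) they ran from 4.4 to 4.81 over peaks of 54 to 150 bp, and the next RING1B peak was 623952 bp away. On chromosome 2 (56966648 to 56969708, RING1B fold 3.45) they ran from 4.41 to 4.88. The chromosome 10 site (26092748 to 26096575, RING1B fold 6.54) held 3, of folds 4.61 to 4.71.

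The 5 peaks farthest from H3K27me3 included 2 pairs on the same chromosome. On chromosome 11 the peak at 34442749 to 34445178 was 159662 bp from the nearest region, and that at 34495078 to 34497226 was 107614 bp away, with a RING1B fold of 5.94 and a PCGF1 peak of fold 3.20, the lowest PCGF1 fold of the set. On chromosome 17 the peaks at 44837412 to 44840160 (fold 3.78) and 44871232 to 44873374 (fold 4.21) were 124751 and 115696 bp away and held no PCGF1. The peak on chromosome 18 (80909151 to 80912457) had a RING1B fold of 3.06 and held 2 PCGF1 peaks, of folds 4.82 and 4.88, that covered 1474 of its 3307 bp.

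The off-H3K27me3 peaks were spread unevenly over chromosomes, and their PCGF1 share was too. They numbered 0.754 per Mb of span between the first and last listed base on chromosome 19, 0.530 on 3, 0.529 on 13 and 0.514 on 16, against 0.181 on 7 and 0.122 on X (0.343 over these 20 chromosomes). As a share of RING1B peaks of this width they made up 44.5% (35.1 to 54.3) on chromosome 16 and 18.5% (12.6 to 25.8) on 7. On chromosome 19 they were 44 of 163 (26.99%, 20.35 to 34.50), close to the 886 of 3238 of the whole set. The high number per Mb there thus went with many RING1B peaks of this width, not with a larger share off H3K27me3. PCGF1 was in 16 of 44 on chromosome 19 (36.4%, 22.4 to 52.2), 13 of 36 on 14 (36.1%, 20.8 to 53.8), 11 of 31 on 18 (35.5%, 19.2 to 54.6) and 12 of 39 on 8 (30.8%, 17.0 to 47.6). It was in 0 of 20 on X (interval up to 16.8%), 3 of 34 on 9 (8.82%, 1.86 to 23.7), 4 of 45 on 12 (8.89%, 2.48 to 21.2), 8 of 83 on 3 (9.64%, 4.25 to 18.1), 5 of 49 on 16 (10.2%, 3.40 to 22.2) and 7 of 66 on 6 (10.6%, 4.37 to 20.6). These were the highest and lowest shares of 20 chromosomes, picked after their values were seen. Some of their intervals overlap, as that of 9 does with those of 18 and 14. Others are apart, as those of X and 3 are from those of 19, 14 and 18. Of the on-H3K27me3 peaks, 278 of 2352 held PCGF1 over all chromosomes and 277 of 2271 on autosomes alone. PCGF1 was thus scarce outside the autosomes in that set too.

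**Figure D5:**
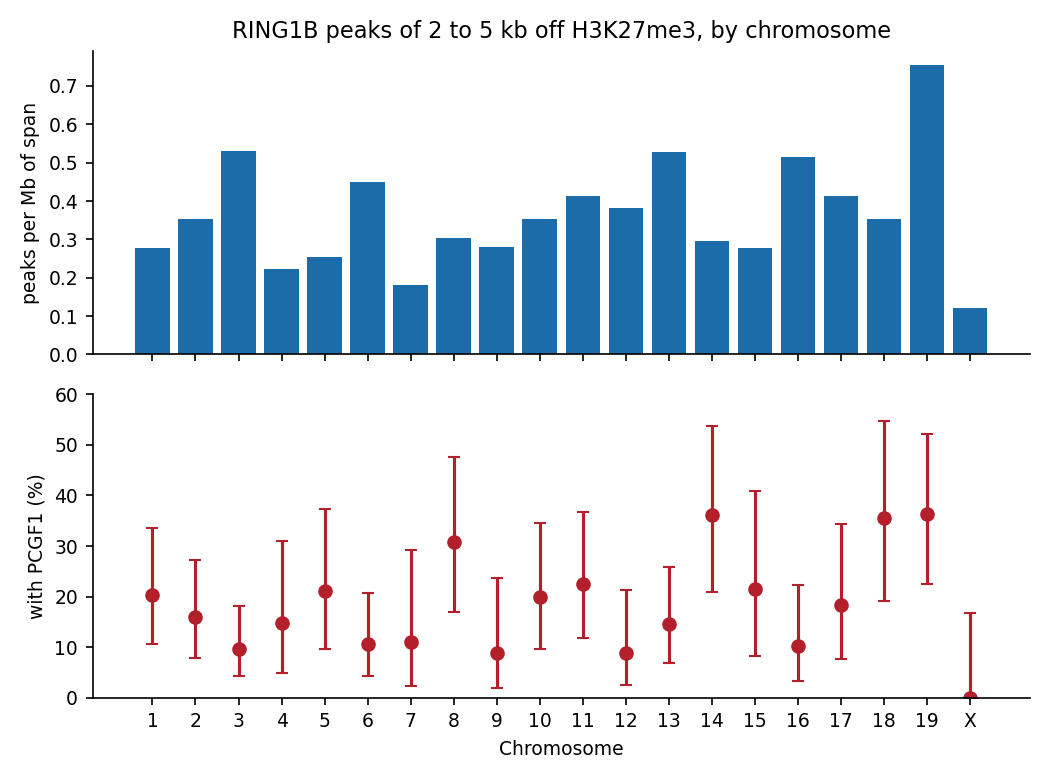
Off-H3K27me3 RING1B peaks of 2 to 5 kb by chromosome (x axis): upper panel, peaks per Mb of listed span (bars from 0); lower panel, the share that holds PCGF1 (%), with exact 95% binomial intervals. Chromosome 19 has the most peaks per Mb, 0.754, and a PCGF1 share of 36.4%. Its peaks are 44 of the 163 RING1B peaks of this width there, beside 886 of 3238 in the whole set. X has 0.122 per Mb and none of its 20 peaks holds PCGF1.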

How the data were processed

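Each of the 3 lists stands for 2 libraries, per the labels. The submitters' processing notes name Bowtie2, SAMtools 1.6.0, Picard and the builds mm9 and dm3, without roles; positions were taken to be mm9, whose contig names the lists carry. Which peak caller and control were used, and whether libraries were pooled, is not given in the sources used here. For RING1B and PCGF1 the authors deposited a fold ratio and a -log10 q for each peak. For H3K27me3 they deposited a signal height (lowest 40, scale not stated).

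Overlap meant at least 1 bp shared; distances are edge to edge. Starts of RING1B and PCGF1 peaks are 1-based. Intervals used scipy 1.17.1, and the procedures were tested on simulated data. The members and lists were chosen with earlier results of these data known. Sites were named by a rule: the 10 of highest RING1B fold, 5 each of highest PCGF1 fold, most PCGF1 peaks and greatest distance, and those nearest the limits. Genes and sequences were not analysed here, because no annotation of mm9 was used. Depth and the other 38 libraries were not analysed either.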

Additional observations from a re-analysis of the deposited data

How the results depend on the processing

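Of 35 recomputed values, 16 stayed within the 95% interval of the main value (1.5 times for the count), 18 moved beyond it and 1 turned; 3 of the 35, the comparisons by whole coverage and by neighbours, were chosen after seeing the data. The 886 peaks became 1509 if only peaks covered by 50% or more were left out, and 191 with a -log10 q of at least 5. The PCGF1 share of 17.8% was 20.7% without H3K27me3 within 1 kb, 11.7% with the stronger 50% of both lists, and 0% with a -log10 q of at least 5 in both, since no PCGF1 peak of the set reaches it. The difference from on-H3K27me3 peaks, 6.01 points, was 8.92, 1.77 and 0 points in those settings, 2.73 points against wholly covered peaks, 2.34 points among lone peaks and 3.74 points among peaks with a RING1B neighbour. The median fold of 3.53 was 3.66 in the stronger 50%, 4.61 with a -log10 q of at least 5 and 3.48 under 50% coverage. Its log2 ratio to on-H3K27me3 peaks, 0.056, was 0.036 under 50% coverage and turned to -0.046 with a -log10 q of at least 5. The cause of these changes was not tested. The median distance to H3K27me3 was 7870 bp to the taller 50% of regions and 6836 bp between midpoints, and 54.0% and 76.9% of peaks had a RING1B neighbour within 5 and 20 kb. No paired analysis was possible because each list joins its 2 libraries, so leaving out a library could not be run either.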

Other observations

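The 5 chains of RING1B peaks that held the most off-H3K27me3 peaks of 2 to 5 kb were long and held no PCGF1. The first ran along chromosome 16 from 81759007 to 81855324 and held 28 RING1B peaks, 6 of them off-H3K27me3 peaks of 2 to 5 kb. The next chain, at 81870758 to 82006185 on the same chromosome, again held 28 RING1B peaks and 5 of the set. Chains on chromosome 12 (36059831 to 36172520, 24 RING1B peaks), chromosome 3 (60103388 to 60261966, 24) and chromosome 6 (129343156 to 129483719, 20) held 5, 5 and 4 of the set. The longest chain with a peak of the set, on chromosome 13 (19487262 to 19789870), held 44 RING1B peaks, 1 of the set and no PCGF1. In all, 53 chains of 10 or more RING1B peaks held at least 1 peak of the set, and 14 of the 53 held a PCGF1 peak anywhere. At the other extreme, 38 peaks of the set had no RING1B peak within 100 kb.

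A few peaks of the set had a -log10 q far above that of RING1B peaks of like fold. Against the running median of 101 RING1B peaks of neighbouring fold, the peak on chromosome 11 at 34495078 had 36.7 where the median was 11.7, that at 34442749 had 30.4 against 16.4, and the peak on chromosome 10 at 119714600 had 83.7 against 33.7. Both chromosome 11 peaks are among the 5 farthest from H3K27me3. The local background behind these values was not tested.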
